A study of Rattus norvegicus with 180 samples.

Results

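Interseptum, which the study placed in its group of smooth or skeletal muscles, was compared with gastrocnemial muscle, a muscle of the calf, in the same animals. The members were chosen by the organ named in the sample titles and paired by animal number, which gave 3 arrays of interseptum and 3 of gastrocnemial muscle among the 180 arrays of the series. All 12 arrays used in the fit came from normal male Sprague-Dawley rats of 10 weeks (animals 4, 5 and 6) that had been perfused with saline under ether anesthesia, and each array held RNA of 1 organ of 1 rat. The other 6 arrays of the fit were musculus soleus, a slow muscle of the calf, and femoris muscle of the thigh. The sources used here name interseptum by that word alone, and which muscle was dissected was not specified further. The array design held 717 miRNAs. Of these, 142 were tested, each detected (over 50% of its spots well above background) throughout the 3 arrays of some muscle among the 4, and the other 575 were not tested. Among the latter, 533 were detected on none of the 12 arrays and 42 on at least 1 of them.

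MicroRNAs are short RNAs that bind transcripts mainly through their seed, bases 2 to 8 counted from the 5′ end, and repress them. In muscle, miR-1, miR-133a, miR-133b and miR-206 (the myomiRs) are abundant, and miR-206 is a miRNA of skeletal rather than heart muscle. miR-499 lies in an intron of Myh7b and miR-208a and miR-208b in introns of Myh6 and Myh7, which are genes of myosin heavy chains, and they are known from the heart and from slow muscle fibres. miR-10 and miR-196 lie between the genes of the HOX clusters, which encode the transcription factors that set position along the body axis. Within a cluster, genes of lower number are in general expressed from more anterior levels than genes of higher number.

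The sequences of the miRNAs on which the results turn are shown here as RefSeq gives them for the rat genome GRCr8, with the seed in capitals. All 10 of 10 names were matched. The miR-196 family comes first, since its members share 1 seed and lie in 3 different HOX clusters. miR-196a lay at chr7:135988900-135988921 (plus strand) between Hoxc10 and Hoxc9, miR-196b at chr4:82661149-82661170 (minus strand) between Hoxa9 and Hoxa10, and miR-196c at chr10:81727561-81727582 (plus strand) between Hoxb13 and Hoxb9.
rno-miR-196a-5p: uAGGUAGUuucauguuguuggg
rno-miR-196b-5p: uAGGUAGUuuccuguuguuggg
rno-miR-196c-5p: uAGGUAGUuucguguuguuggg
Counted from the 5′ end of miR-196a, miR-196b differs from it by A12C and miR-196c by A12G, so 21 of 22 bases are shared in either pair. Signals of these members may therefore share molecules, and how far each probe separates them was not tested.

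The miR-10 pair is shown since its members lie near the other end of the HOX clusters. miR-10a-5p lay at chr10:81779730-81779752 (plus strand) between Hoxb5 and Hoxb4, and miR-10b-5p at chr3:80035886-80035907 (plus strand) within the annotated gene Hoxd4.
rno-miR-10a-5p: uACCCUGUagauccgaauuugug
rno-miR-10b-5p: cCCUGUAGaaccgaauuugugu
The entry of miR-10b starts 2 bases later in the run that both share. With that offset 20 of 21 bases are the same, and the members differ by U12A, counted from the 5′ end of the miR-10a-5p entry.

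The muscle markers named for these organs and 3 further miRNAs that differed are given for reference. miR-499-5p lay at chr3:164570616-164570636 (plus strand) within Myh7b, miR-206-3p at chr9:30590747-30590768 (plus strand) between Pkhd1 and Il17a, and miR-185-5p at chr11:96169041-96169062 (plus strand) within Tango2. miR-34a-5p lay at chr5:165815971-165815992 (plus strand) between H6pd and Gpr157, and miR-181d-5p at chr19:40888484-40888506 (plus strand) between Zswim4 and Nanos3.
rno-miR-499-5p: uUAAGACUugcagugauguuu
rno-miR-206-3p: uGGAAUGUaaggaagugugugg
rno-miR-185-5p: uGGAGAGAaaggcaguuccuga
rno-miR-34a-5p: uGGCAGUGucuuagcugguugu
rno-miR-181d-5p: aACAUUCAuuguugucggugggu
No seed is shared among these 5.

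Between 137 and 159 miRNAs were detected on the interseptum arrays and between 110 and 168 on those of gastrocnemial muscle, where the array of animal 6 gave the lowest number. No spot was saturated (0 over all arrays), and 2.33% to 3.68% of the spots of the 12 arrays were left out as outliers. Both organs of animal 4 lay on 1 slide, whereas those of animals 5 and 6 lay on different slides. The organs of animal 5 were also scanned on different days, whereas those of animals 4 and 6 were each scanned on the same day. Scan day was not a term of any fit. The median SD over the 142 miRNAs was 0.18 on the log2 scale among the interseptum arrays and 0.26 among those of gastrocnemial muscle. All signals below are spot intensities scaled between arrays, in arbitrary units, with a floor of 10.8. Probes differ in response, so that levels are compared between organs and not between miRNAs.

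The muscle identity of the samples was examined with the myomiRs and the miRNAs of myosin genes over the 55 organs of perfused animals, without a test. Interseptum carried miR-206 at 4806 ± 1016 (SD, n = 3), the fourth highest mean after musculus soleus, gastrocnemial muscle and femoris muscle (8599, 5701 and 5331). Next were esophagus (2112) and tongue (1793), which hold striated muscle. In heart atrium and heart interventricular septum miR-206 was detected on 0 of 3 arrays each. miR-208, the heart miRNA of Myh6, was detected on 0 of 3 interseptum arrays and on 3 of 3 arrays of both heart organs (means 24.1 and 22.1). A further entry, miR-208_v15.0, which the study lists as highly expressed in both heart organs, was also detected on 0 of 3 interseptum arrays. Interseptum ranked 3 for miR-1 and miR-133b, after femoris muscle and gastrocnemial muscle, and stood above both heart organs. For miR-1 and miR-133b the mean of interseptum thus lay among those of the limb muscles, and for miR-206 it lay below them. Both heart organs differed from interseptum in miR-206 and miR-208.

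**Figure D1:**
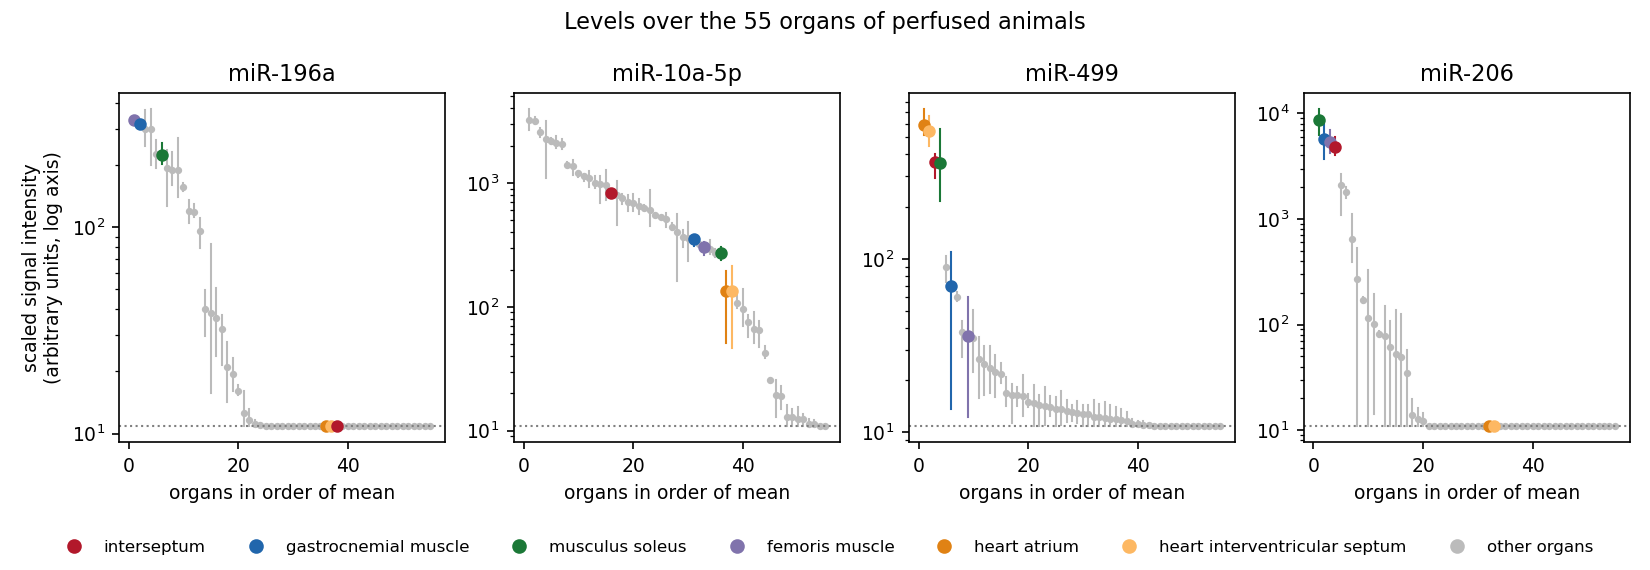
Scaled signal intensity (log axis) of 4 miRNAs in the 55 organs of perfused animals, ordered by mean; points are means of 3 arrays, bars run from the lowest to the highest array, and the dotted line is the floor. Interseptum stands with the limb muscles for miR-206, beside musculus soleus and the heart organs for miR-499, above the limb muscles for miR-10a-5p and at the floor for miR-196a.

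Few miRNAs passed the test between interseptum and gastrocnemial muscle. In the limma fit, 8 of 142 miRNAs (5.63%) had an adjusted p under 0.05. Of these, 5 were higher in interseptum (3.52%), namely miR-224_v15.0, miR-10a-5p, miR-185, miR-34a and miR-181d, and 3 were lower (2.11%), namely miR-196a, miR-196b and miR-10b. Of the 5, miR-224_v15.0 and miR-181d were tested only because all 3 interseptum arrays detected them. The groups of 3 and 3 arrays did not overlap for any of these 8. For reference, 29 of the 142 miRNAs (20.4%) were higher without overlap and 13 (9.15%) lower without overlap, and 30 (21.1%) had an unadjusted p under 0.05. The median difference over all 142 was 0.11 on the log2 scale, interseptum minus gastrocnemial muscle. Slide as a fixed block cannot decide these calls. The interseptum arrays of animals 5 and 6 were the only arrays of the fit on their slides. Under that block the contrast rests on the interseptum array of animal 4 alone. A p above the threshold does not show that 2 levels are the same, and with 3 animals the intervals given below are wide.

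**Figure D2:**
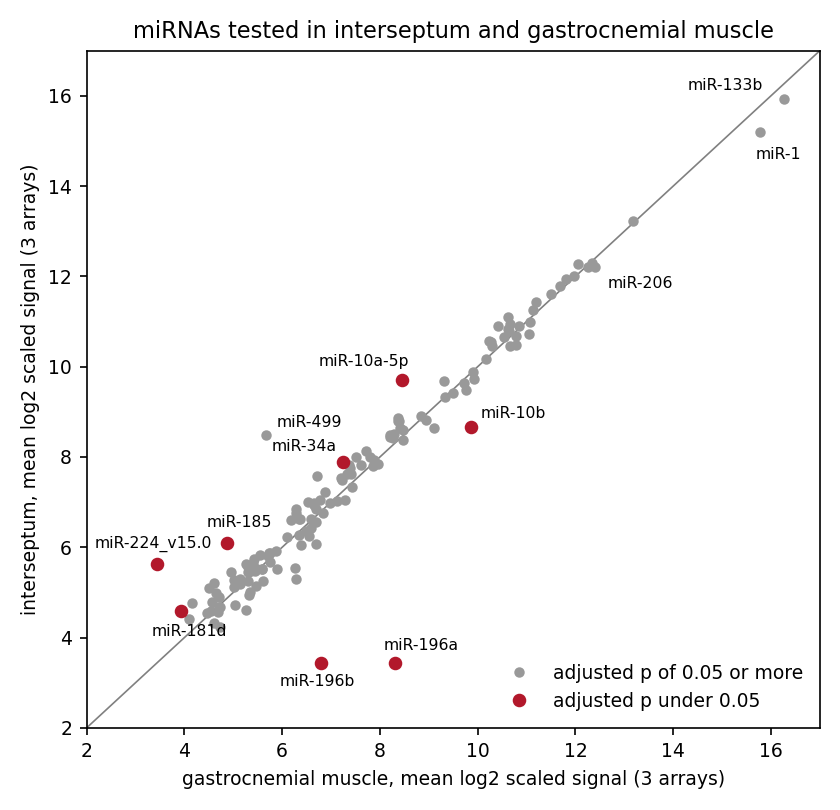
Mean log2 scaled signal of the 142 tested miRNAs in gastrocnemial muscle (x axis) and interseptum (y axis), 3 arrays each; red points have an adjusted p under 0.05 and the line marks equal levels. Most points lie along the line, miR-196a and miR-196b lie at the floor of interseptum, and miR-499 lies above the line without passing the threshold.

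HOX cluster miRNAs gave the largest falls. The list of 11 such miRNAs held 4 that were tested, of which 1 was called higher and 3 lower (5.63% of all miRNAs tested were called in either direction). The other arms, miR-196c and miR-615 were not tested. miR-196a and miR-196b entered the test only through the limb muscles, where they were high, so that the count over this list is a description. Their interseptum values are all the floor and have no spread, and the p-values below depend on that floor. miR-196a was not well above background in interseptum (0 of 3 arrays, all at the floor), whereas gastrocnemial muscle of animals 4, 5 and 6 gave 312, 331 and 303. The level was at least 23.4-fold lower in interseptum (adjusted p = 1.34e-09). It was also at the floor against 225 ± 27.3 in musculus soleus (at least 16.6-fold lower, adjusted p = 3.73e-09) and 332 ± 14.4 in femoris muscle (at least 24.7-fold lower, adjusted p = 1.16e-09; SD, n = 3 each). Femoris muscle and gastrocnemial muscle had the highest miR-196a means of the 55 organs, and interseptum was 1 of 36 organs in which no array detected it. Tongue, esophagus, heart atrium and heart interventricular septum were also among these 36, so that absence of miR-196a was not particular to interseptum.

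For miR-196b all 3 interseptum arrays were again at the floor and not well above background, against 129, 112 and 95.3 in gastrocnemial muscle of animals 4, 5 and 6. This was at least 8.27-fold lower in interseptum (adjusted p = 4.99e-08). The same held against musculus soleus (132 ± 6.80, at least 9.83-fold, adjusted p = 2.54e-08) and femoris muscle (102, 102 and 83.0, at least 7.07-fold, adjusted p = 9.68e-08). miR-196c, the member in the HoxB cluster, was at the floor on the 3 interseptum arrays and at 46.1, 54.7 and 36.2 in gastrocnemial muscle. Since it was detected on only 2 of the 3 gastrocnemial arrays and not on all 3 of any muscle, it was not tested. All 3 members of the seed family shown above thus had no array of interseptum above background. Tongue, esophagus and both heart organs likewise had no array that detected any of these 3 members.

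miR-10b and miR-10a-5p differed in opposite directions. miR-10b was 511, 419 and 316 in interseptum and 885, 1023 and 876 in gastrocnemial muscle (animals 4, 5 and 6). Every interseptum array lay below every gastrocnemial array, and the log2 difference was -1.18 ± 0.24 (SE, adjusted p = 0.0139), or 2.27-fold lower. Without animal 4 the difference was -1.38 (adjusted p = 0.0916) and without animal 6 it was -1.04 (adjusted p = 0.241), both short of the threshold. No scaling gave -0.88 (adjusted p = 0.110), also short of it. Without animal 5 the difference was -1.13 and still called (adjusted p = 0.0179). With slide as a fixed block it was -0.97, which rests on the interseptum array of animal 4 alone. Against musculus soleus miR-10b fell by 0.66 on the log2 scale (adjusted p = 0.0441), with overlapping arrays, and against femoris muscle by 1.42 (adjusted p = 0.00304).

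miR-10a-5p was 856, 895 and 752 in interseptum and 366, 312 and 375 in gastrocnemial muscle. All interseptum arrays were about the same height and well above the others, and the log2 difference was 1.25 ± 0.16 (SE, adjusted p = 5.37e-04), or 2.38-fold higher. Within the slide that held both organs of animal 4 the difference was 1.23. It was 3.10-fold higher than in musculus soleus (adjusted p = 7.01e-05) and 2.77-fold higher than in femoris muscle (adjusted p = 1.77e-04). Among the 55 organs interseptum ranked 16 for miR-10a-5p, while gastrocnemial muscle ranked 31, femoris muscle 33 and musculus soleus 36. For miR-10b interseptum ranked 23 and these muscles 14, 11 and 17. Of the HOX cluster miRNAs tested, the one beside Hoxb4 was thus higher, and those beside Hoxc9, Hoxa10 and within Hoxd4 were lower.

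**Figure D3:**
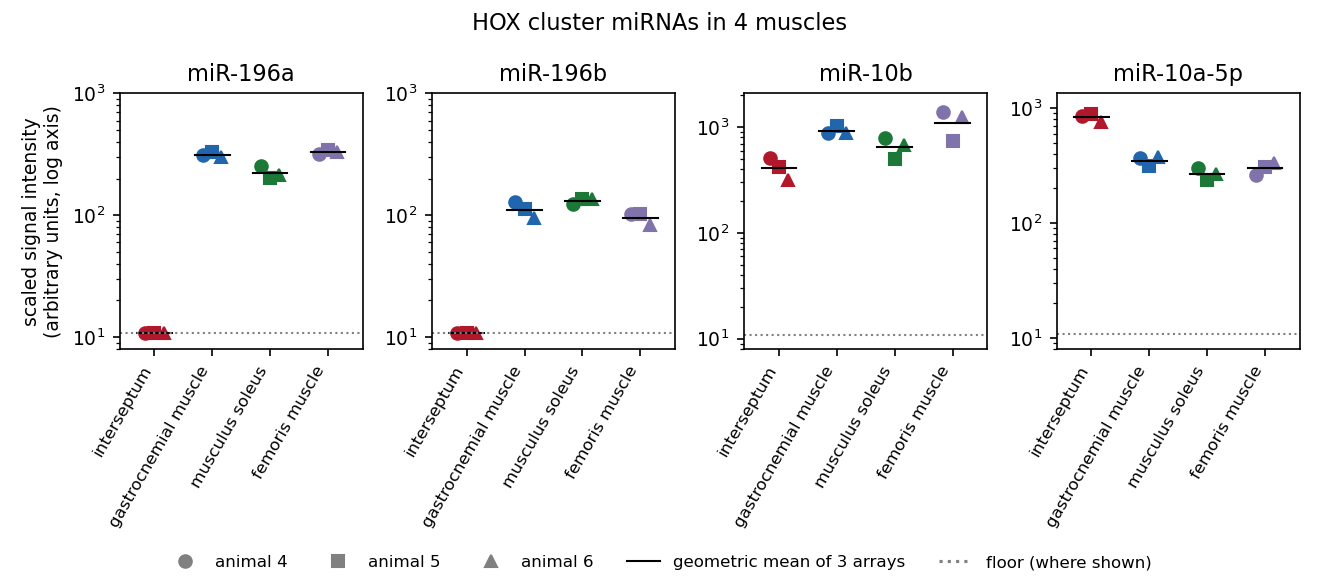
Scaled signal intensity (log axis) of the 4 tested HOX cluster miRNAs on each array of the 4 muscles; symbols stand for animals, bars for geometric means of 3 arrays and the dotted line for the floor. miR-196a and miR-196b are at the floor on all 3 interseptum arrays, miR-10b is low and miR-10a-5p high in interseptum.

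miR-499, the miRNA of the slow myosin gene Myh7b, was high in interseptum but did not pass the threshold. The study lists miR-499 and miR-206 with muscle organs from these same arrays, so that their levels here are not independent evidence. miR-499 was 392, 293 and 402 in interseptum and 88.0, 13.6 and 109 in gastrocnemial muscle. The interseptum arrays were close together and all above the others, while the gastrocnemial array of animal 5 was near the floor and not well above background. The log2 difference was 2.82 ± 0.78 (SE, 95% interval 1.07 to 4.57, adjusted p = 0.0714). Without the animal block the adjusted p was 0.0410. Without animal 5 the difference was 2.02 with an adjusted p of 0.0176, but without animal 4 or 6 it was 3.16 and 3.29 and not called (adjusted p = 0.102 and 0.306). The level was higher in 3 of 3 animals (2.16, 4.43 and 1.88 on the log2 scale), where the 4.43 is set by the gastrocnemial array of animal 5 that was not well above background.

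Against musculus soleus, where miR-499 was 214, 557 and 292, the log2 difference was 0.14 (95% interval -1.61 to 1.88, adjusted p = 0.897) and the arrays overlapped. In femoris muscle it was 12.2, 60.3 and 35.2, and since 2 of these 3 arrays were not well above background no fold is given. All 3 lay below the interseptum arrays (adjusted p = 0.0105). Among the 55 organs the highest means of miR-499 were in heart atrium (587), heart interventricular septum (542), interseptum (362) and musculus soleus (354), followed by brown adipose tissue (89.6). The other 6 miRNAs of the myosin genes, the forms of miR-208, miR-208b and miR-499*, were detected on none of the 6 arrays of interseptum and gastrocnemial muscle and were not tested.

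Of the myomiRs, 0 of the 5 tested were called in the limma fit, against 5.63% of all miRNAs tested, a share at which a list of this size need not hold a call (the list held 7, of which miR-1* and miR-206* were not detected on these arrays). Their median difference was -0.32 on the log2 scale, against 0.11 over all miRNAs tested, and miR-1 alone had an unadjusted p under 0.05 (0.0436). miR-206, which promotes muscle differentiation, was 3993, 4481 and 5945 in interseptum and 5056, 3730 and 8316 in gastrocnemial muscle. These ranges overlapped, and the log2 difference was -0.19 (95% interval -0.59 to 0.22, adjusted p = 0.573), with the sign turned to 0.04 under quantile normalization and to 0.12 without scaling. Against musculus soleus miR-206 fell by 0.82 on the log2 scale (adjusted p = 0.00988), and against femoris muscle the difference was -0.14 (adjusted p = 0.583).

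miR-1, the most common miRNA of striated muscle, was 44611, 30316 and 40291 in interseptum and 48184, 67983 and 54598 in gastrocnemial muscle. The arrays did not overlap, but the log2 difference of -0.57 ± 0.25 (SE) had an adjusted p of 0.226 and was only -0.11 in animal 4, whose organs shared a slide. Against femoris muscle miR-1 fell by 0.84 (adjusted p = 0.0299). miR-133b was likewise lower without overlap (65649, 54387 and 68838 against 70632, 84364 and 80891) with a difference of -0.32 (adjusted p = 0.345). miR-133a and miR-133a* overlapped between the organs, with differences of -0.32 (adjusted p = 0.536; 0.10 without animal 5) and -0.34 (adjusted p = 0.445).

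**Figure D4:**
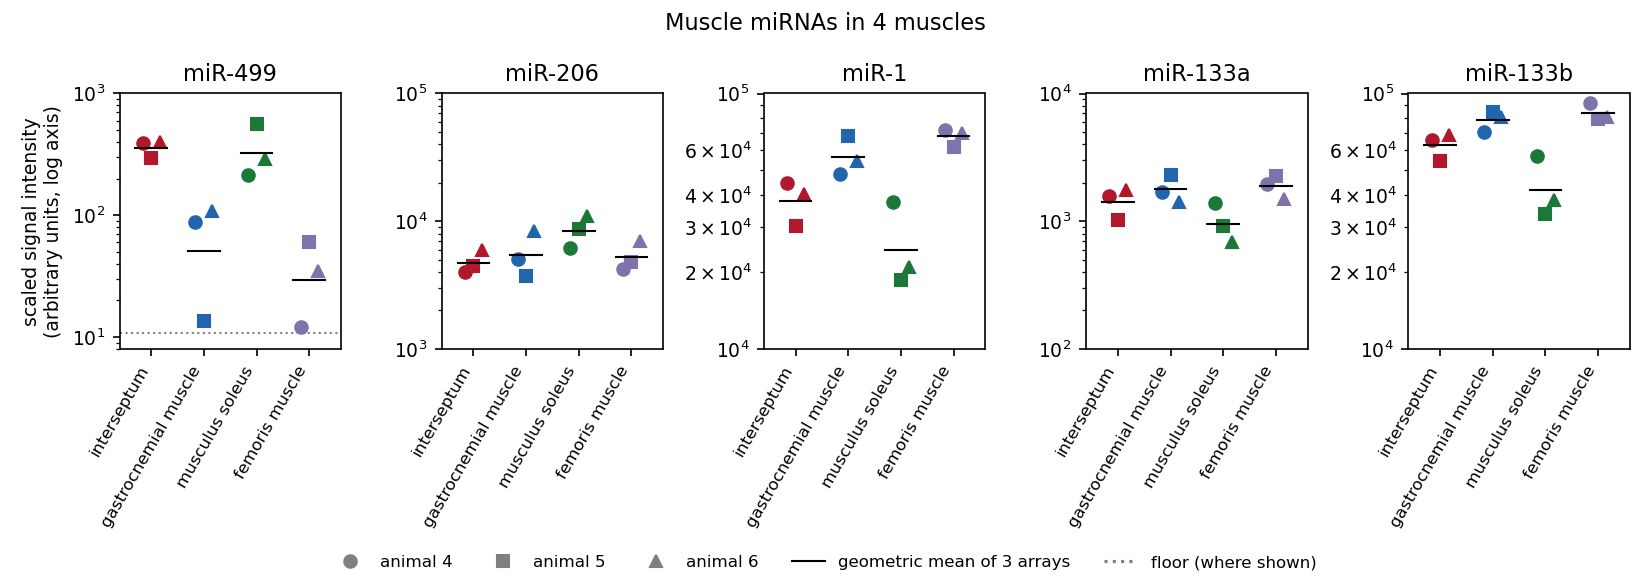
Scaled signal intensity (log axes that differ between panels) of miR-499 and 4 myomiRs on each array of the 4 muscles; symbols stand for animals, bars for geometric means of 3 arrays and the dotted line for the floor. miR-499 is high in interseptum and musculus soleus and spread widely in gastrocnemial muscle, while none of the myomiRs passed the test between interseptum and gastrocnemial muscle.

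The miRNAs with the brightest signals in interseptum were miR-133b, miR-1, miR-22, let-7a and miR-23a. None of them was called. miR-22, a miRNA abundant in striated muscle, was 9584 ± 1118 in interseptum and 9340 ± 1190 in gastrocnemial muscle (SD, n = 3), let-7a 5061 ± 264.5 and 5208 ± 629, and miR-23a 4937 ± 198 and 4323 ± 767. For each of these 3 the arrays of both organs overlapped, and the log2 differences were 0.04, -0.04 and 0.21 (adjusted p = 0.909, 0.890 and 0.455). Under other scalings the first became -0.08 and the second up to 0.27.

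Of the remaining called miRNAs, miR-224_v15.0 and miR-185 were higher in interseptum than in each of the limb muscles. The design held miR-224 under 2 names, of which v15.0 is reported, and its bases were not used here. In the study's own summary over all organs, the entry without v15.0 had a far lower maximum signal. The values below hold for the v15.0 entry alone. miR-224_v15.0 was 52.2, 63.0 and 36.7 in interseptum, and all 3 gastrocnemial arrays were at the floor and not well above background. It was the only miRNA detected on all 3 interseptum arrays and on no gastrocnemial array, and it entered the test through interseptum alone, where it is high, so that a higher level was favoured by the filter and its p depends on the floor. Its level was at least 2.54-fold higher (adjusted p = 1.51e-04). It stood at the floor on all 3 arrays of musculus soleus (adjusted p = 1.13e-04) and at 25.2, 21.2 and 11.3 in femoris muscle, with 2 of 3 arrays detected (2.72-fold, adjusted p = 0.00250). A floor 4 times as high, which lies near these levels, left a difference of 0.27 (adjusted p = 0.206), and the normexp background one of 0.25 (adjusted p = 0.581). Among the 55 organs interseptum ranked 5, after pituitary gland, skin, tongue and testicle.

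miR-185 was 69.4, 57.4 and 79.3 in interseptum and 33.2, 21.3 and 36.0 in gastrocnemial muscle, where 2 of 3 arrays detected it. The lowest interseptum array lay above the highest gastrocnemial array, and the log2 difference was 1.21 ± 0.24 (SE, adjusted p = 0.0139). Without animal 4 or 6 the difference was 1.29 and 1.25, close to the value above, but the call was lost (adjusted p = 0.0916 and 0.200). With slide as a fixed block it was 1.12, which rests on the interseptum array of animal 4 alone. Under the normexp background the difference was 0.16 (adjusted p = 0.630). It was 1.92-fold higher than in musculus soleus (adjusted p = 0.0129) and higher than in femoris muscle (adjusted p = 0.00193), where 1 of 3 arrays detected it and no fold is given. Over the 55 organs miR-185 was highest in thalamus (334), and interseptum ranked 27.

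miR-34a, a target of p53 and a regulator of the cell cycle, was 265, 204 and 251 in interseptum and 175, 140 and 141 in gastrocnemial muscle. The arrays were apart, with a log2 difference of 0.66 ± 0.15 (SE, adjusted p = 0.0328). Without animal 4, 5 or 6 the difference was 0.69, 0.72 and 0.58, and the call was lost (adjusted p = 0.0937, 0.0567 and 0.621). In femoris muscle it was 252 ± 28.8, and the difference was within the spread (-0.07 on the log2 scale, 95% interval -0.42 to 0.27, adjusted p = 0.703), so that it did not set interseptum apart from all limb muscles. miR-181d was 26.5, 21.1 and 24.6 in interseptum and 18.4, 13.7 and 13.8 in gastrocnemial muscle, where 1 of 3 arrays detected it. It was detected on all 3 arrays of interseptum and of no other muscle, so that it too entered the test through interseptum alone and a higher level was favoured by the filter. The fitted difference, which rests on 2 gastrocnemial arrays not well above background, was 0.66 ± 0.17 (SE, adjusted p = 0.0486). Without animal 4, 5 or 6 it was 0.73, 0.68 and 0.58 and no longer called (adjusted p = 0.0916, 0.103 and 0.621), and the normexp background turned its sign (-0.16). miR-181c, its neighbour in the genome, was 36.7, 32.7 and 32.9 against 29.5, 20.1 and 19.5, with a difference of 0.59 (adjusted p = 0.135).

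**Figure D5:**
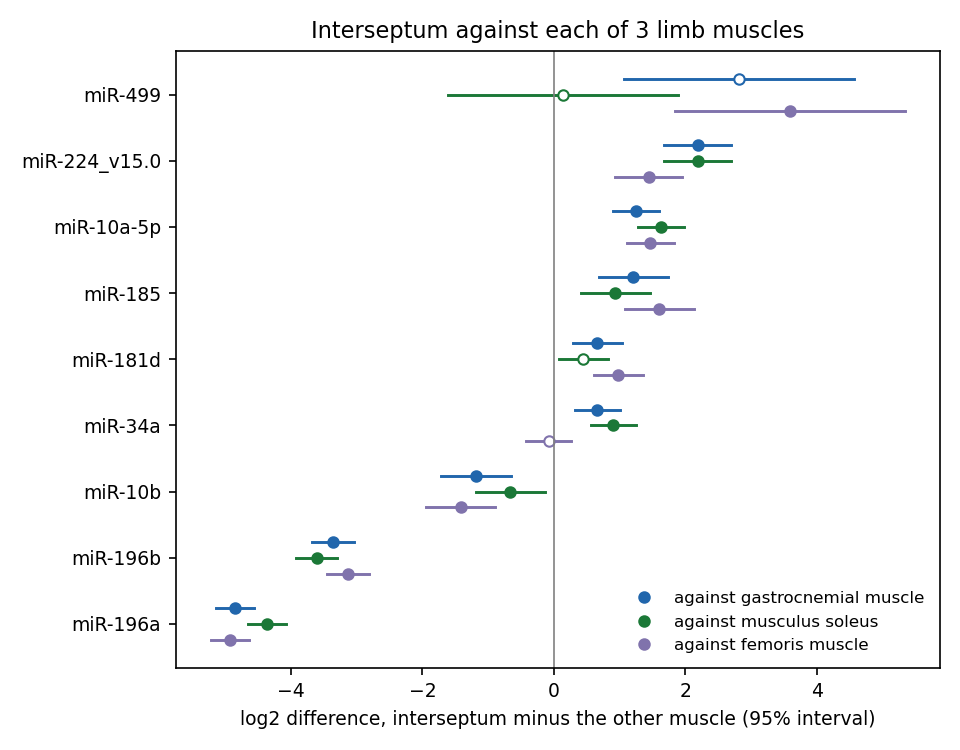
Log2 difference of interseptum minus gastrocnemial muscle, musculus soleus and femoris muscle (colours) for the 8 called miRNAs and miR-499; lines are 95% intervals of the limma fit, and filled points have an adjusted p under 0.05. The values of miR-196a, miR-196b and miR-224_v15.0 rest on the floor where a muscle was not above background; the open points of miR-34a against femoris muscle and miR-499 against musculus soleus lie near 0.

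Interseptum differed from musculus soleus in 63 of 142 miRNAs (44.4%; 56 higher, 39.4%, and 7 lower, 4.93%) and from femoris muscle in 47 (33.1%; 33 higher, 23.2%, and 14 lower, 9.86%). These counts share the interseptum arrays with the comparison above and were not compared with it. The median difference over all 142 was 0.44 against musculus soleus and 0.18 against femoris muscle, and with other scalings or the authors' table the count against musculus soleus was 9 to 20, at a median of -0.06 to 0.15. Against all 3 limb muscles in 1 direction, 3 of 142 miRNAs were higher in interseptum (miR-10a-5p, miR-185 and miR-224_v15.0) and 3 of 142 were lower (miR-10b, miR-196a and miR-196b). The 3 comparisons use the same interseptum arrays, so that their agreement is partly built in. miR-224_v15.0 entered the test through interseptum alone, and the interseptum values of miR-196a and miR-196b are all the floor. Without 1 animal the counts against musculus soleus and femoris muscle were 5 to 48 and 4 to 30. Slide as a fixed block cannot decide whether this set holds. Only the interseptum array of animal 4 shared a slide with other arrays of the fit, and none of those was of femoris muscle.

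In the lists of other cell types 0 miRNAs were called, against 5.63% of all miRNAs tested, and with so few tested in each list this says little about them. In tissue pieces of this kind fewer cells of a type and less RNA per cell cannot be told apart. Of the leukocyte miRNAs 5 were tested and 0 called, with a median of 0.30 on the log2 scale; their summed signal was 999 to 1144 in interseptum and 782 to 942 in gastrocnemial muscle. miR-142-3p, a miRNA of blood cells, was 254, 147 and 185 against 88.6, 127 and 101. The arrays did not overlap, and its difference of 0.86 ± 0.27 (SE) had an adjusted p of 0.111. Without animal 5 it was 1.19 (adjusted p = 0.0179), and without animal 4 or 6 it was 0.53 and 0.86 and not called (adjusted p = 0.312 and 0.621). It was called in 6 of 23 alternatives in all, among them slide as a random block, array weights and the percentile over all miRNAs. These 6 also include slide as a fixed block (1.58), which rests on the interseptum array of animal 4 alone. The endothelial pair miR-126 and miR-126* had differences of 0.50 and 0.48 (0 of 2 called; summed signal 2013 to 2544 against 1490 to 1988), and the 2 tested of the cartilage and tendon list, miR-140 and miR-140*, differences of 0.33 and 0.43 (0 called; 226 to 276 against 181 to 209). What part these markers had in the 8 called differences was not tested.

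miR-451, the marker of red cells, varied widely within both organs (402, 47.7 and 521 against 284, 188 and 86.9) and overlapped (adjusted p = 0.809), and the other 3 red cell miRNAs were detected on none of these arrays. Smooth muscle (2 tested) and mesenchymal miRNAs (6 tested) gave 0 calls, with medians of 0.20 and 0.08. No member of the epithelial (0 of 16) or liver and gut list (0 of 8) was tested; miR-200b, miR-205_v15.0 and miR-192 alone were detected on any of the 6 arrays, at 17.6 or below.

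Among families and clusters no let-7 (8 tested, median -0.00), miR-30 (8, 0.06), miR-15 and miR-16 (5, -0.02) or miR-17-92 member (6, 0.28) was called. None of the 16 tested miRNAs of the imprinted Dlk1-Dio3 cluster was called either (median -0.13, 5 positive and 11 negative). Over all 142 miRNAs tested 5.63% were called, a share at which lists of these sizes, here and below, need not hold a call. The median over all 142 was 0.11, with 88 higher and 54 lower on average. Of the 9 tested miRNAs linked to oxidative metabolism and the 5 of satellite cells and regeneration, 0 were called (medians -0.11 and 0.16). Of the miR-29 family 4 were tested and 0 called. miR-29a, which represses collagens, was 1810, 2080 and 1862 against 1513, 1321 and 1283 without overlap; its difference was 0.48 ± 0.13 (SE, adjusted p = 0.0588), and miR-29c* differed by -0.71 (adjusted p = 0.169). Among 23 alternatives miR-29a was called in 8 (lowest adjusted p = 0.0128) and miR-29c* in 3 (lowest adjusted p = 0.00839).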

How the data were processed

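RNA of rat organs had been hybridised by the authors to 1-color Agilent miRNA arrays and read with Agilent Feature Extraction 10.7.3 (per the submitters' processing notes). The authors deposited, per array, background-corrected spot intensities with flags, used here without further background subtraction, and 1 table of normalized intensities, used as an alternative; 0 sample columns were left unused. Outlier spots were left out, spots were averaged per probe and probes per miRNA (2 probes and 20 spots for each miRNA named), each array was scaled so that its 75th percentile, taken over the 37 miRNAs found above background on every one of the 180 arrays, was 2118, and a floor of 10.8, the median over arrays of the lowest scaled signal of a detected miRNA, was set before log2. limma 3.58.1 (R 4.3.3) was fitted to 12 arrays with terms for organ and animal, with Benjamini-Hochberg adjustment over 142 miRNAs and two-sided p. A fold of a miRNA not above background on any array of a group is given as a bound against, per array, the lowest signal among probes above background. Depth does not apply to arrays, and 3 arrays a group limit the precision. The p-values rest on the scatter left after the terms for organ and animal. That scatter was pooled over the 4 muscles (6 residual degrees of freedom) and moderated over the miRNAs. All arrays came from the same 3 rats.

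Arrays of 1 number came from 1 rat, by the titles. The deviations of interseptum and gastrocnemial muscle from their means correlated over 142 miRNAs by -0.10, 0.01 and 0.21 in animals 4, 5 and 6. Between different animals these correlations ran from -0.18 to 0.20, so the values within animals show no clear pairing. For 3 arrays titled animal 5 (gastrocnemial muscle, femoris muscle and musculus soleus) another label gives animal 6; the title was used, and an alternative left them out. Slides were 23 and scan days 3. Alternatives changed the scaling, floor, background, spots, filter, blocks, fit and arrays; normexp (offset 50) used median spot signals, since the files hold no mean signal. The members and lists were chosen with earlier results of these data known. miRNAs were named if they were miR-499 or miR-206, called with no overlap (up to 12 each way), among the 5 brightest of interseptum, called against all 3 limb muscles, or list members on which a list's result turns. The fit was tested on simulated data. Python 3.11.15, pandas 2.3.3, numpy 2.4.6 and matplotlib 3.10.9 were used.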

Additional observations from a re-analysis of the deposited data

How the results depend on the processing

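miR-196a, miR-196b and miR-10a-5p kept their direction and their call in all alternatives that tested them (22, 22 and 23), with log2 differences of -6.44 to -2.15, -4.15 to -1.21 and 0.99 to 1.56. For miR-196a and miR-196b the interseptum values of the fit reported were all the floor, on which the size and p of their differences depend. miR-10b was called in 19 of 23, miR-224_v15.0 in 20 of 22, miR-185 in 18 of 22, miR-34a in 12 of 23 and miR-181d in 9 of 21, and miR-499, not called in the fit reported, in 11 of 22. These tallies include slide as a fixed block, which rests on the interseptum array of animal 4 alone and whose counts are therefore not given. The count of miRNAs higher in interseptum than in gastrocnemial muscle (5) was 8 with the percentile over all miRNAs, 3 with that over the miRNAs of the 12 arrays, 8 in the authors' table, 2 with the normexp background, 2 over miRNAs detected on all 12 arrays (fewer were tested), 8 with slide as a random block, 15 with array weights, and 2 to 5 without 1 animal. The count lower (3) was 1 over miRNAs detected on all 12 arrays, 6 in the fit of all arrays of perfused animals, 5 with array weights, and 2 to 3 without 1 animal. With no replicate block 7 were higher and 3 lower; without the block miR-499 was among those called (adjusted p = 0.0410) and the 8 kept their calls. Against musculus soleus (63) the counts were 11, 14, 13 and 9 with the percentile over all miRNAs, that of the 12 arrays, quantile normalization and no scaling, 20 in the authors' table, 35 without the 3 arrays of unclear number, and 5 to 48 without 1 animal. Against femoris muscle (47) they were 8 with normexp, 22 over miRNAs detected on all 12 arrays, 30 without the 3 arrays, and 4 to 30 without 1 animal. Leaving out animal 5 removes these 3 arrays and the interseptum array of that animal, and gives the same values for these results. The median shift over all miRNAs, interseptum minus gastrocnemial muscle, was 0.11 and ranged from -0.12 (normexp) to 0.42 (no scaling). Signs turned for miR-181d (-0.16) and miR-181c (-0.12) with normexp, miR-206 with quantile normalization (0.037) and no scaling (0.12), miR-22 with the percentile of the 12 arrays (-0.083), and let-7a with the percentile over all miRNAs (0.059), no scaling (0.27) and the authors' table (0.014). Without 1 animal the sign turned within -0.64 to 0.10 for miR-133a, -0.10 to 0.15 for miR-22, -0.092 to 0.0086 for let-7a and -0.74 to 1.54 for miR-451; none of these values was called. After quantile normalization miR-1 and miR-133b each held 1 value on all arrays of the fit and had no test. Where no cause is named, the cause was not tested.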
